A study of Mus musculus with 4 samples.

Results

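The genes described here are 10 markers of cortical interneurons: Gad1, Gad2, Pvalb, Calb1, Calb2, Sst, Vip, Npy, Cck and Reln. They were chosen by name, as every non-control probe that the array files assign to 1 of these symbols. The rule gave 24 probes on 33 spots, among 56605 probes on the array. Of these, 23 were well above background on all 4 arrays, among 42094 such probes and 20655 genes. The remaining probe, of Calb2, was well above background on 2 arrays.

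RNA came from the prefrontal cortex of B6J mice aged 3 months. The groups were wild-type mice on starch (the control), wild-type mice on sucrose, Glo1 heterozygotes on starch and Glo1 heterozygotes on sucrose, and each diet was given for about 70 days starting at postnatal day 21. RNA of 3 mice per group was pooled into 1 sample and hybridised to 1 single-colour array, so mouse-to-mouse spread was not measured and no group has a replicate. All 4 arrays shared 1 slide with 1 group at each position, so the effects of position and of group cannot be told apart. The kind of Glo1 allele and the sex of the mice are not given in the sources used here.

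Cortical interneurons are the inhibitory cells of the cortex. They make GABA with the glutamate decarboxylases GAD67 (Gad1) and GAD65 (Gad2), and they are divided into classes by the calcium-binding proteins and neuropeptides they hold. Parvalbumin marks fast-spiking basket and chandelier cells, somatostatin marks dendrite-targeting Martinotti cells, and Vip and calretinin (Calb2) mark cells that mainly inhibit other interneurons. Several of these markers are also made outside this class: Calb2 and Gad1 in granule and periglomerular cells of the olfactory bulb, Gad1 and Gad2 in striatal projection neurons, Cck and Calb1 in some pyramidal cells.

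Calb2 had the widest range of levels among the 10 markers, and it was read by a pair of independent 60-base probes for the transcript NM_007586, both on the minus strand of chromosome 8 (build mm9). They are shown because the result for Calb2 rests on them. The first spans 112667073 to 112669583, a genomic stretch of 2511 bases for 60 bases of probe, so it crosses at least 1 intron. The other lies at 112678555 to 112678614.
Calb2 A_51_P311436: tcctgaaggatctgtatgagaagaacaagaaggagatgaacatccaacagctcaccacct
Calb2 A_52_P556433: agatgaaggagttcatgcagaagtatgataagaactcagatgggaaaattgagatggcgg

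Levels below are processed signals divided by the array's 75th percentile of non-control spots, so a level of 1 is that percentile, and they are compared between arrays for 1 probe, never between genes. The 75th percentiles were 1780.4 to 1928.9 intensity units, 77.59% to 80.22% of non-control spots were well above background, and no spot was saturated. Glo1, the gene named by the genotype, had levels of 4.04 and 5.53 on the wild-type starch and sucrose arrays and 2.74 and 3.04 on the heterozygous ones. Repeated spots of a probe gave the measuring noise: a difference of 2 single spots had an SD of 0.07 on the log2 scale in the brightest signal quartile (291 probes), 0.12 in the third quartile (5 probes) and 0.13 in the second quartile (3 probes). That SD holds spot noise only, not the spread between mice, pools or labellings. In the text, 2 SD of it (0.14, 0.24 and 0.26) are used as the measuring noise, and a difference past it is not thereby a difference between groups of mice. In pooled tissue RNA, fewer cells of a type and less RNA per cell cannot be told apart.

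**Figure D1:**
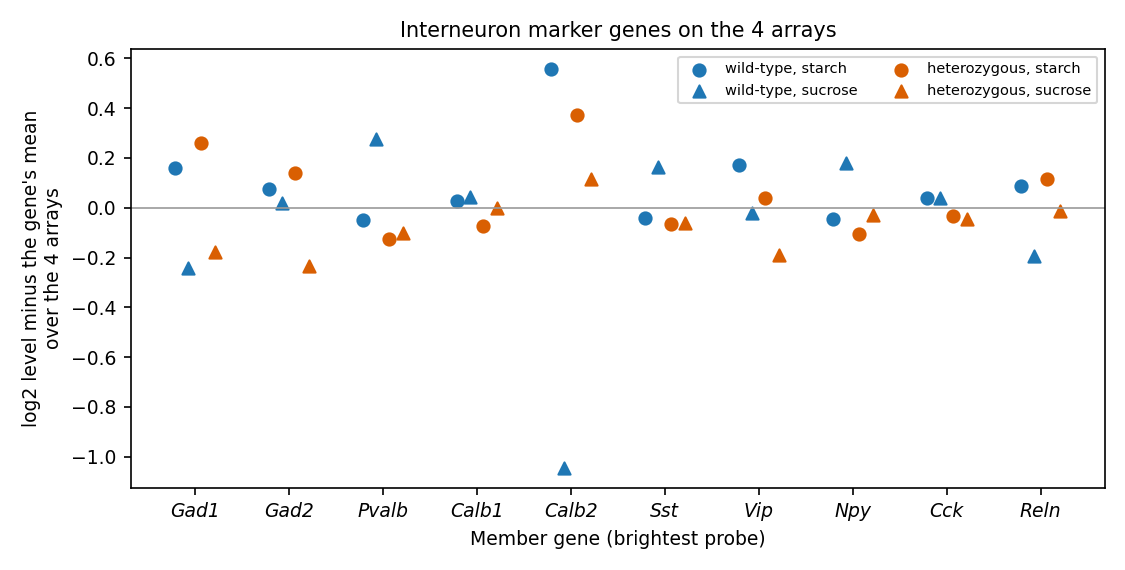
Log2 level of the brightest probe of each of the 10 marker genes on each array, minus that gene's mean over the 4 arrays (y axis), with 1 point per array (circles starch, triangles sucrose, blue wild-type, orange heterozygous). Calb2 spans 1.60 log2 units, Gad1 0.50 and every other gene 0.40 or less. Gad1 shows both starch points above both sucrose points, and Pvalb, Sst and Npy have the wild-type sucrose point highest.

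Of the enzymes that make GABA, Gad1 was lower on both sucrose arrays than on both starch arrays. Its brightest probe, A_52_P144310 (NM_008077, chromosome 2, 70439699 to 70439758, plus strand), had levels of 12.7 on wild-type starch, 9.62 on wild-type sucrose, 13.6 on heterozygous starch and 10.04 on heterozygous sucrose. The sucrose level was 75.7% of the starch level in wild-type mice and 73.8% in heterozygotes, log2 differences of -0.40 and -0.44. The genotypes differed by 0.10 on starch and 0.06 on sucrose, both inside the measuring noise of 0.14. As a mean over its 4 probes, described next, Gad1 differed between diets by -0.81 and -0.63 and between genotypes by 0.39 on starch and 0.57 on sucrose. Over all genes, 354 (1.71%) were at -0.40 or lower on sucrose in both genotypes. The summed levels of 12 immediate early genes (67.0, 47.3, 76.4 and 43.5) and of 7 olfactory bulb markers (10.4, 2.46, 9.78 and 5.47) were also lower on both sucrose arrays, and their part in the Gad1 levels was not tested.

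The other 3 Gad1 probes, for transcripts whose models differ from that of the brightest probe, ordered the diets in the same way within each genotype. Probe A_55_P2731481 (AK047521) had levels of 0.324, 0.155, 0.465 and 0.277 in the same order of arrays, and log2 differences for sucrose of -1.07 in wild-type mice and -0.75 in heterozygotes. Probe A_55_P2879270 (XM_006498768) differed by -0.63 and -0.37. The dimmest, A_52_P663538 (ENSMUST00000155979), differed by -1.16 and -0.95, in a signal quartile where no repeated probe gave the noise. These 3 probes had higher levels in heterozygotes, by 0.22 to 0.70 on starch and 0.49 to 0.91 on sucrose, of which the 0.22 of A_55_P2879270 lies inside the noise of its quartile. Which form of the transcript each of them detects was not tested.

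The brightest Gad2 probe was lowest on the heterozygous sucrose array. That probe, A_51_P495462 (NM_008078, chromosome 2, 22549095 to 22549154, plus strand), had levels of 7.38, 7.10 and 7.71 on wild-type starch, wild-type sucrose and heterozygous starch, which lie within 0.12 log2 units of one another, inside the noise. On heterozygous sucrose it was 5.95, a difference of -0.37 from starch and -0.25 from wild-type sucrose. Its probe A_55_P2734537 (AK136834) had levels of 0.345, 0.282, 0.480 and 0.322, lower on sucrose by -0.29 and -0.58, and it was lowest on wild-type sucrose, with a genotype difference on sucrose of 0.19, inside its noise of 0.24. The dim probe A_55_P2735205 (AK141473) differed by 0.33 for sucrose in wild-type mice and by -1.21 in heterozygotes, so the Gad2 probes disagree on diet in wild-type mice. On starch these 2 probes were higher in heterozygotes, by 0.48 and 0.78, past their noise of 0.24 and 0.26, where the brightest probe differed by 0.06. As a mean over its 3 probes, Gad2 differed between diets by 0.00 in wild-type mice and -0.72 in heterozygotes, and between genotypes on starch by 0.44. Slc32a1, the vesicular GABA transporter that loads the product of both enzymes, had levels of 24.6, 22.9, 26.2 and 20.1, also lowest on heterozygous sucrose. The 11 striatal markers, genes of a region rich in GABA neurons, had summed levels of 34.2, 56.5, 52.5 and 29.4 on these arrays, lowest on the array where Slc32a1 and the brightest Gad2 probe were lowest. Their part in these levels was not tested.

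**Figure D2:**
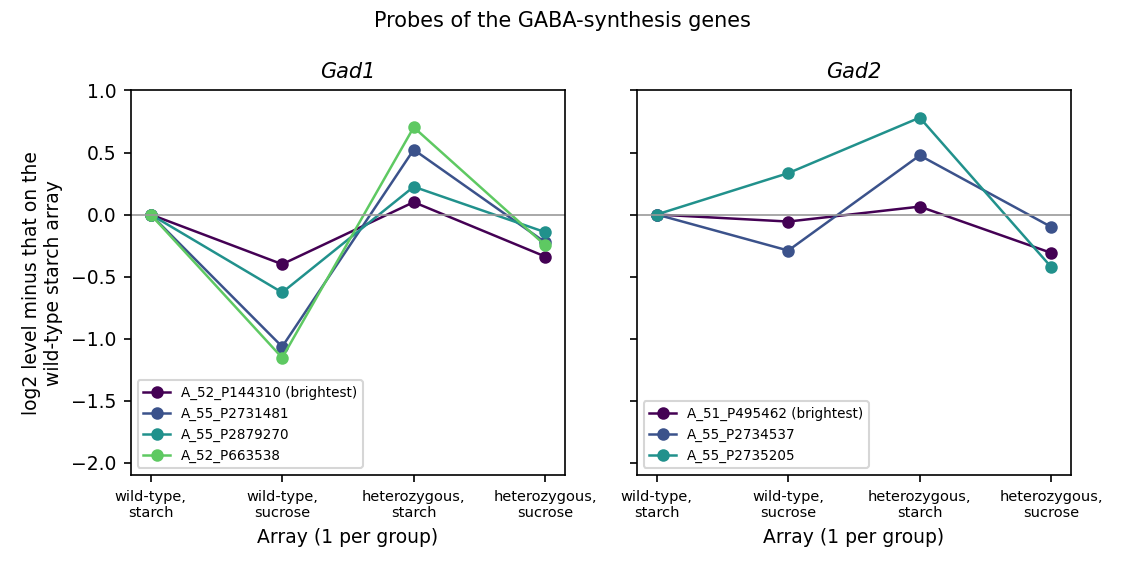
Log2 level of each Gad1 probe (left, 4 probes) and Gad2 probe (right, 3 probes) on each array, minus its own level on the wild-type starch array (y axis). Every Gad1 line is lower on sucrose than on starch within each genotype, whereas the Gad2 lines part on the wild-type sucrose array, from -0.29 to 0.33.

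Among the calcium-binding proteins, parvalbumin was highest on the wild-type sucrose array. Its single probe, A_55_P2114437 (NM_013645, chromosome 15, 78021951 to 78022010, minus strand), had levels of 5.54 on wild-type starch, 6.93 on wild-type sucrose, 5.25 on heterozygous starch and 5.33 on heterozygous sucrose. The 3 other arrays lay within 0.08 log2 units of one another, inside the measuring noise, so the order among them cannot be read. Wild-type sucrose stood at 125% of wild-type starch (0.32), and heterozygous sucrose at 76.9% of wild-type sucrose (-0.38). Both differences use the same wild-type sucrose array. In heterozygotes sucrose and starch differed by 0.02.

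Calbindin (Calb1), a calcium buffer, did not move beyond the noise on its brightest probe. That probe, A_51_P335801 (NM_009788, chromosome 4, 15832543 to 15832602, plus strand), had levels of 14.4, 14.6, 13.4 and 14.1, a range of 0.12 log2 units over the 4 arrays. Its other probes spanned 0.15 each, which for A_66_P102374, a probe of the brightest quartile, is past the noise of 0.14.

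Calretinin (Calb2) was lowest on the wild-type sucrose array. Probe A_51_P311436 had levels of 0.436 on wild-type starch, 0.144 on wild-type sucrose, 0.384 on heterozygous starch and 0.321 on heterozygous sucrose. The level on sucrose was 32.9% of that on starch in wild-type mice (-1.60) and 83.7% in heterozygotes (-0.26), and on sucrose heterozygotes had 224% of the wild-type level (1.16). On starch the genotypes differed by -0.18, inside the noise of 0.24. Probe A_52_P556433 had levels of 0.254, 0.0890, 0.238 and 0.196, with diet differences of -1.52 and -0.28 and a genotype difference on sucrose of 1.14. The dim probe A_55_P2729483 (AK032171) was well above background on both starch arrays and on neither sucrose array. Its starch level was 1.34-fold (wild-type) and 1.18-fold (heterozygous) the lowest level of any probe well above background on the sucrose array of that genotype. That lowest level is not an upper limit for a probe that was not detected. No repeated probe gave the noise of its signal quartile, so the size of a diet difference cannot be read from it.

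Markers of the olfactory bulb, which lies next to the dissected region and whose granule and periglomerular cells make calretinin, were lower on the same array. All 7 listed genes were well above background on all 4 arrays. Their summed levels were 10.4, 2.46, 9.78 and 5.47 in the order of arrays used above, lowest on wild-type sucrose as Calb2 was. All 7 were past 2-fold lower on sucrose in wild-type mice, by -3.17 for Eomes, -2.72 for Doc2g, -2.71 for Scgn, -2.14 for Th, -2.11 for Tbx21, -1.92 for Sp8 and -1.62 for Cdhr1. Of the 7, 5 were past 2-fold higher in heterozygotes than in wild-type mice on sucrose: Eomes (2.62), Tbx21 (1.87), Doc2g (1.56), Scgn (1.38) and Th (1.15). Their part in the Calb2 values was not tested.

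**Figure D3:**
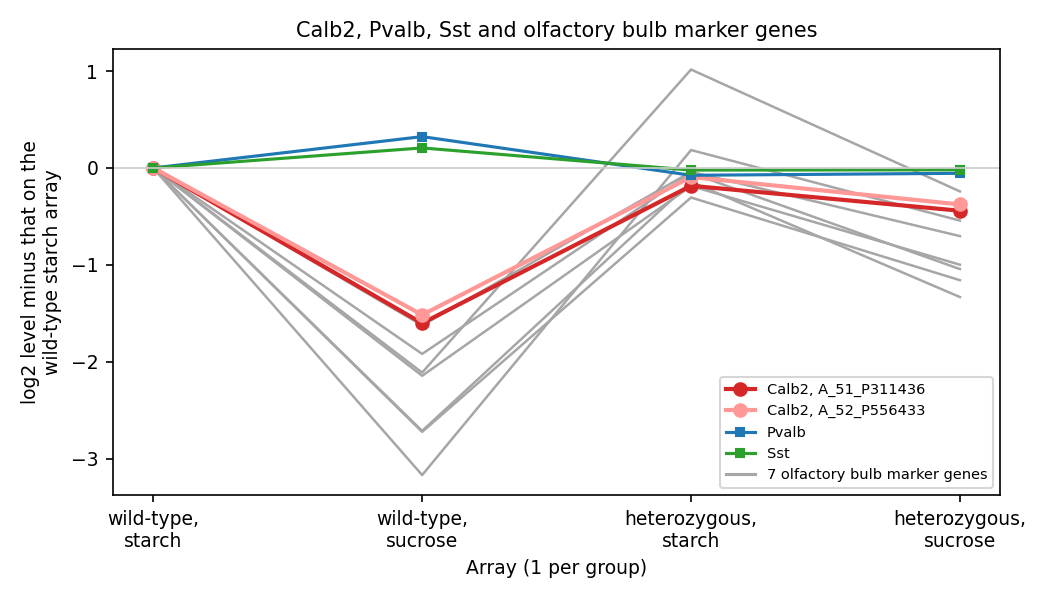
Log2 level minus that on the wild-type starch array (y axis) on each of the 4 arrays for both bright Calb2 probes, Pvalb, Sst and the 7 olfactory bulb markers (grey, 1 line per gene). Both Calb2 probes and all 7 grey lines are lowest on the wild-type sucrose array, where Pvalb (0.32) and Sst (0.21) lie above 0.

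The genes whose profile over the 4 arrays was most like that of Calb2 were sought among 858 genes with a range of 1 log2 unit or more, by the root mean square distance of centred log2 levels. The nearest were Rab37 (0.06), Rd3l (0.06), Ppm1j (0.06), Nmb (0.08) and Gpnmb (0.09), and the other bright Calb2 probe lay at 0.04. Nmb, the peptide neuromedin B, had levels of 2.62, 0.811, 2.53 and 1.998. Of the olfactory bulb markers, Cdhr1 ranked 14, Th 51 and Sp8 59, and the other 4 ranked between 165 and 383. With 4 arrays that were also used to define the profile, this likeness is a description.

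Of the neuropeptides, Sst and Npy had the pattern of Pvalb. Sst, the peptide of Martinotti cells (A_55_P2837304, NM_009215, chromosome 16, 23889681 to 23889740, minus strand), had levels of 39.9, 46.0, 39.3 and 39.3. It was 0.21 higher on sucrose in wild-type mice, and the 3 other arrays lay within 0.02 of one another. Npy, the peptide of neurogliaform cells and a subset of somatostatin cells, had levels of 4.41, 5.14, 4.23 and 4.45 (A_51_P454873, NM_023456, chromosome 6, 49773743 to 49777505, plus strand). It was 0.22 higher on sucrose in wild-type mice, and the 3 other arrays lay within 0.08. In heterozygotes both peptides differed between diets by 0.08 or less. All 12 markers of cortical excitatory neurons were also higher on the wild-type sucrose array than on wild-type starch, with a median of 0.22 and summed levels of 80.7, 105.5, 97.6 and 99.3. Their part in the higher Pvalb, Sst and Npy levels was not tested.

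Vip, the peptide of bipolar interneurons, had levels of 2.65, 2.31, 2.42 and 2.06 (A_55_P2751338, NM_011702, chromosome 10). The file's coordinates for this single probe run on the minus strand, whereas RefSeq places Vip on the plus strand, and which transcript the probe detects was not tested. Sucrose was lower by -0.20 in wild-type mice and -0.23 in heterozygotes, past the measuring noise of 0.14. Heterozygotes were lower by -0.17 on sucrose, also past it, and by -0.13 on starch, inside it, and heterozygous sucrose against wild-type starch gave -0.36. Cck, a peptide of a class of basket cells and of many pyramidal cells, was printed as 10 spots per array (A_55_P1977431, NM_001284508, chromosome 9, 121398943 to 121399002, minus strand). Its spots had a level of 114.4 ± 3.94 (SD, n = 10 spots) on wild-type starch, 114.6 ± 6.32 (n = 10) on wild-type sucrose, 108.9 ± 4.15 (n = 10) on heterozygous starch and 108.0 ± 4.79 (n = 8) on heterozygous sucrose, where 2 spots marked as outliers were left out. Single spots of the 4 arrays overlapped, and the means spanned 0.08 on the log2 scale. Heterozygotes were lower by -0.07 on starch and -0.08 on sucrose. The noise of a mean over spots was not computed, and the sign of both differences changed in some alternative processing.

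Reelin (Reln), an extracellular matrix protein secreted by interneurons of the upper layers and some Martinotti cells, was lowest on wild-type sucrose. Probe A_51_P365369 (NM_011261, chromosome 5, 21390477 to 21390536, minus strand) had levels of 3.37, 2.77, 3.44 and 3.14. The diet difference was -0.28 in wild-type mice and -0.13 in heterozygotes, the latter inside the noise. Its 5 dimmer probes did not share 1 direction: A_55_P2715296 (ENSMUST00000160707) was higher on sucrose in wild-type mice by 0.41, whereas A_55_P2715301 (ENSMUST00000161782) was lower by -0.34. As a mean over its 6 probes, Reln differed between diets by -0.06 in wild-type mice. The summed levels of the 7 olfactory bulb markers (10.4, 2.46, 9.78 and 5.47) were also lowest on wild-type sucrose, and their part in the Reln levels was not tested.

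The promoter of Sst is shown because it carries the textbook cAMP response element, a binding site of the activity-regulated factor CREB, and because most immediate early genes, which neuronal activity induces, had lower levels on the sucrose arrays. The list of 12 immediate early genes had a median of -0.51 for sucrose in wild-type mice (11 lower) and -0.79 in heterozygotes (12 lower). Past 2-fold lower were Egr2 in wild-type mice (-1.30), and Fos (-1.24), Fosb (-1.03), Egr1 (-1.11), Egr2 (-1.76) and Arc (-1.01) in heterozygotes. RefSeq's window table of assembly GRCm38.p6 held entries for 8 of the 10 genes, in 9 windows running from 250 bases before to 50 after a gene's start. The letters TGACGTCA, which read the same on both strands, were in the window of Sst and in no other of the 9, and in 588 of 32851 windows overall (1.79%). The Egr-factor letters GCGTGGGCG, sought on both strands, were in none of the 9 and in 201 of all windows (0.612%). The 250 bases before the Sst start are chr16:23890845-23891094, minus strand, with the element in capitals, beginning 48 bases before the start.
Sst promoter: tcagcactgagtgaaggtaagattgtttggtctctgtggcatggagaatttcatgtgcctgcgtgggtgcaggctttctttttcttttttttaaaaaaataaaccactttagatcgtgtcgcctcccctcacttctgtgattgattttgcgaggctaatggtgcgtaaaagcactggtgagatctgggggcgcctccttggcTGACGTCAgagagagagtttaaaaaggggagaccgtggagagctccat
On the arrays, Sst stayed within 0.02 between diets in heterozygotes and was 0.21 higher on sucrose in wild-type mice. The immediate early list had negative medians for sucrose in both genotypes. Any part of the element or of neuronal activity in the Sst levels was not tested.

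A list of 49 further interneuron genes, grouped by role, was measured whole. In the 5 pairwise comparisons of arrays, 8 of the 49 (16.3%) were at 1.5-fold or more at least once, beside 13.7% of all genes, and 41 stayed within 1.5-fold. Of the 10 markers, 1 was at 1.5-fold or more on its brightest probe. The median of the list was -0.02 for diet in wild-type mice, -0.01 for diet in heterozygotes and -0.05 for genotype on sucrose, beside 0.00, 0.00 and -0.02 over all genes.

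None of 7 genes of fast-spiking parvalbumin cells passed 1.5-fold in these comparisons. The 7, which include the potassium channels Kcnc1 and Kcnc2 and the sodium channel Scn1a, had a median of 0.13 for sucrose in wild-type mice (5 higher, 2 lower) and -0.14 in heterozygotes (2 higher, 5 lower). On sucrose all 7 were lower in heterozygotes, by -0.09 to -0.32, and on starch 5 of 7 were higher (median 0.07). The list of cortical excitatory neurons had a median of 0.22 in the first of these comparisons and of -0.21 between genotypes on sucrose. The striatal list had medians of 1.11 and -1.07 between diets in wild-type mice and heterozygotes, and of 0.84 and -1.31 between genotypes on starch and on sucrose. The part of both lists in these values was not tested. The 7 genes of somatostatin cells had medians of -0.10 for diet in wild-type mice, 0.00 for diet in heterozygotes and -0.14 between genotypes on sucrose, and the 7 genes of the perineuronal net, the matrix around parvalbumin cells, had -0.03, -0.07 and -0.05 in these 3 comparisons. Acan, the aggrecan core of that net, was the member of the net at 1.5-fold: its levels were 0.256, 0.168, 0.307 and 0.255, lower on sucrose in wild-type mice by -0.61.

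The 14 transcription factors of interneuron development had medians of -0.02 for sucrose in wild-type mice (7 higher, 7 lower) and -0.02 in heterozygotes (6 higher, 8 lower), and 4 of them, Dlx1, Dlx5, Prox1 and Nr2f2, were at 1.5-fold in a pairwise comparison. Dlx1 had levels of 0.997, 0.533, 0.990 and 0.723, lower on sucrose by -0.90 in wild-type mice and -0.45 in heterozygotes. Dlx5 had levels of 0.219, 0.155, 0.284 and 0.174, lower by -0.49 and -0.70. Both are also made by interneurons of the olfactory bulb. The 7 markers of that region had a median of -2.14 for sucrose in wild-type mice and -0.85 in heterozygotes, and their part in the Dlx levels was not tested. Lhx6, the factor of the parvalbumin and somatostatin lineages, stayed within 1.5-fold.

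Prox1 and Nr2f2, factors of interneurons born in the caudal ganglionic eminence, were high on 1 array. Prox1 had levels of 0.241, 0.293, 0.275 and 1.01, higher on heterozygous sucrose than on heterozygous starch by 1.88, and its other probe gave 1.89. Nr2f2 had levels of 0.612, 0.645, 0.715 and 1.25 (0.80). The same array stood apart for 6 choroid plexus markers, with summed levels of 0.496, 1.91, 0.434 and 67.3, and all 6 were well above background on every array. Their part in Prox1 and Nr2f2 was not tested.

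The 6 further genes of Vip or Htr3a cells had a median of -0.03 for sucrose in wild-type mice (3 higher, 3 lower) and 0.11 in heterozygotes (5 higher, 1 lower). Of these, Crh, a releasing hormone made by a subset of Vip cells, was lower on both sucrose arrays than on both starch arrays. Its levels were 1.495, 0.988, 1.73 and 0.918, lower on sucrose by -0.60 in wild-type mice and -0.91 in heterozygotes. Lamp5, a membrane protein of neurogliaform cells, was highest on wild-type starch (4.20) and lowest on heterozygous sucrose (2.60), with 3.30 and 3.08 between them. That is a range of 0.69 log2 units. Its dimmer probe A_66_P112340 had the same highest and lowest arrays, with a range of 0.43, short of 1.5-fold. Sncg, gamma-synuclein of a Cck-cell class, had levels of 0.324, 0.320, 0.266 and 0.402, and its probes gave 0.60 and 0.57 for diet in heterozygotes.

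**Figure D4:**
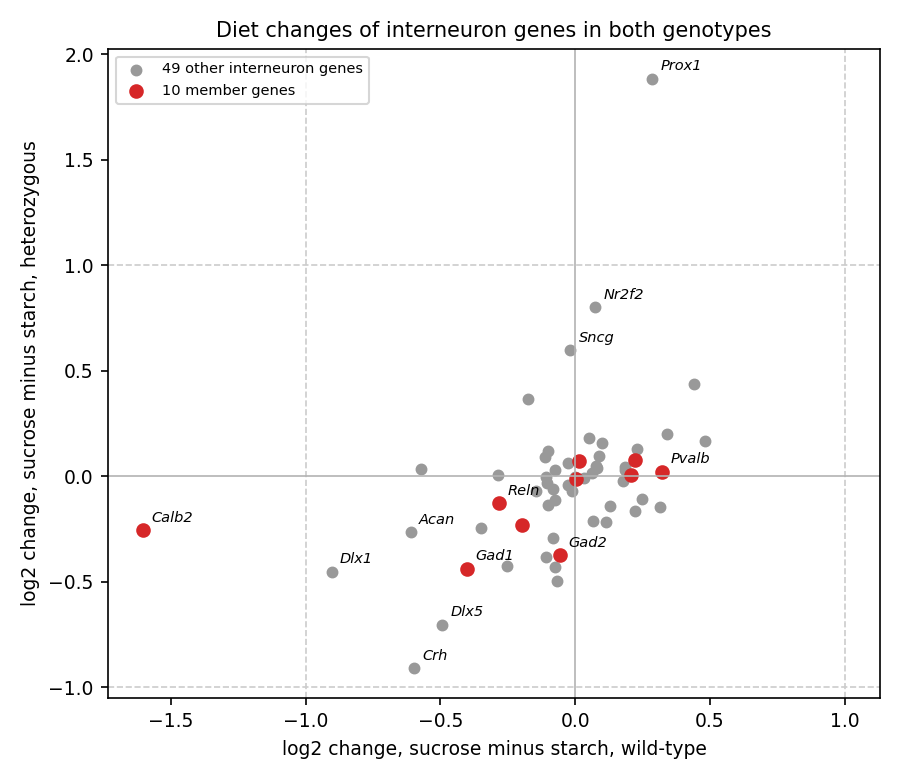
Log2 level on sucrose minus that on starch for wild-type mice (x axis) and in heterozygotes (y axis) for the 10 marker genes (red) and the 49 further interneuron genes (grey), each at its brightest probe, with dashed lines at 2-fold. Most genes lie near 0 on both axes. Calb2 (-1.60, -0.26) is the marker past a dashed line, Prox1 (0.29, 1.88) is the other gene past one, and Gad1 (-0.40, -0.44), Dlx1, Dlx5 and Crh are low on both axes.

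Counted at 2-fold on the brightest probe of each gene, Calb2 was the marker called. For diet in wild-type mice 1 of 10 passed, lower on sucrose, beside 1.48% of all genes in either direction and 0.992% lower. For genotype on sucrose 1 of 10 passed, higher in heterozygotes, beside 1.71% and 1.37%. For the difference between the diet changes of the genotypes 1 of 10 passed, at 1.34, beside 2.88% in either direction and 2.08% higher. None of the 10 passed for diet in heterozygotes (1.77% of genes), genotype on starch (0.813%) or heterozygous sucrose against wild-type starch (2.0%). The Calb2 counts share the wild-type sucrose array. Outside these counts, the dimmer Gad1 probes A_55_P2731481 (-1.07) and A_52_P663538 (-1.16) were past 2-fold for diet in wild-type mice. The dimmer Gad2 probe A_55_P2735205 was past it for diet in heterozygotes (-1.21) and for the difference between the diet changes (-1.54).

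The medians of the 10 markers were -0.03 for diet in wild-type mice, -0.07 for diet in heterozygotes, -0.07 for genotype on starch and -0.13 for genotype on sucrose. The medians over all genes were 0.00, 0.00, -0.02 and -0.02 in the same order. Several genes of other lists were at 2-fold in the comparisons where Calb2 was. Besides the olfactory bulb markers and Egr2 given above, for diet in wild-type mice they were 6 striatal genes (higher, among them Drd1, Adora2a, Rgs9, Gpr6 and Six3, list median 1.11), 4 of 6 choroid plexus genes (higher, list median 1.22) and Foxp2 of deep-layer neurons (1.28). Besides the 5 olfactory bulb markers given above, for genotype on sucrose they were Prox1 (1.79), 8 striatal genes (lower, list median -1.31), all 6 choroid plexus genes (higher, 4.62), Foxp2 (-1.20) and the astrocyte gene Gfap (1.16). For the difference between the diet changes they were Prox1 (1.60), all 11 striatal genes (list median -2.02), Eomes, Doc2g, Th and Scgn of the olfactory bulb list (list median 1.33), all 6 choroid plexus genes (4.68), Foxp2 (-1.89) and Gfap (1.03). The lists for thalamus, astrocytes, oligodendrocytes, microglia and endothelium had medians between -0.13 and 0.08 in both pairwise comparisons.

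Across both factors, limma fitted diet and genotype as additive terms over all 42094 probes with 1 residual degree of freedom. No probe had an adjusted p under 0.05 for diet (0%, with 3704 at an unadjusted p under 0.05) or for genotype (0%, with 2704), so no marker was called. For diet, Gad1 had fitted differences of -0.42 on its brightest probe and of -1.05, -0.91 and -0.50 on the others, each with a limma adjusted p of 0.532 and lower on sucrose in both genotypes. Calb2, whose diet difference was unequal between genotypes, had -0.93 (limma adjusted p = 0.589). Pvalb had limma adjusted p-values of 0.713 for diet and 0.734 for genotype.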

How the data were processed

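Gene expression was measured on 4 single-colour Agilent arrays, 1 per group, each hybridised with pooled RNA. Values are processed intensities from Agilent Feature Extraction 11.5.1.1 (submitters' processing notes): per the file headers, background was subtracted with spatial detrending, signals were detrended multiplicatively and low ones replaced by surrogates, with no step between arrays. The deposited value table holds a ratio per spot, the processed signal over the array's 75th percentile, as checked against the scanner files.

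From these, each log2 intensity was scaled by subtracting log2 of its array's 75th percentile, taken from the 59305 spots that are no controls. Outlier spots were left out and spots of a probe averaged. Probes had to be well above background on all 4 arrays, and a gene was its brightest probe. Groups came from the labels. Comparisons are differences of single arrays, counted at 2-fold, with no p-value. An additive fit used limma 3.58.1 in R 4.3.3 with Benjamini-Hochberg adjustment over all probes. It treats the interaction as error. The number of arrays limits the precision.

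The genes named are all 10 markers, interneuron-list genes at 1.5-fold in a pairwise comparison, genes of other lists at 2-fold where a marker was, the 5 genes most like the marker with the widest range, and Glo1. Kcnc1, Kcnc2, Scn1a, Cplx1, Nefh, Slc32a1, Lhx6, Fos, Fosb, Egr1 and Arc were named beyond that rule. The result of 1 gene of the striatal list is not reported here. Members and lists were chosen with earlier results of these data known. Alternatives changed the scaling, background correction, dim-probe filter, outlier spots, value table, probe summary, threshold and prior variance. Coordinates of probes are the files' (mm9); all 10 symbols were in RefSeq's GRCm38.p6 table, which served for names and promoter windows.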

Additional observations from a re-analysis of the deposited data

Results flagged for a closer look

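For 3 probes of the markers the log2 diet change in heterozygotes minus that in wild-type mice stood out because it was 1 or more in size and the sign of a factor's change differed between the levels of the other factor. The Gad2 probe A_55_P2735205 had -1.54: it was higher on sucrose in wild-type mice (0.33) and lower in heterozygotes (-1.21), and the brightest Gad2 probe had -0.32. The Calb2 probes A_51_P311436 and A_52_P556433 had 1.34 and 1.23: heterozygotes were lower than wild-type mice on starch, by -0.18 and -0.09, and higher on sucrose, by 1.16 and 1.14. Both starch values lie inside the measuring noise, so their direction cannot be read. These differences were not tested, since each group had 1 array.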

How the results depend on the processing

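No paired analysis was possible because each group has 1 array and the labels give no replicate numbers, and for the same reason no array could be left out. The 10 markers' changes in 6 comparisons were recomputed under 8 alternatives: 44 of 60 kept their sign throughout. The 16 that did not were 0.15 or smaller in size in the main setting. Calb2 ranged from -1.61 to -1.39 for diet in wild-type mice and from 1.003 to 1.161 for genotype on sucrose. Gad1 ranged from -0.81 to -0.36 and from -0.63 to -0.41 for diet in wild-type mice and heterozygotes, the largest in wild-type mice being the mean over its probes. Pvalb ranged from 0.29 to 0.35 for diet in wild-type mice. As a mean over probes Gad2 was -0.72 for diet in heterozygotes, -0.71 for the interaction and 0.44 for genotype on starch (-0.37, -0.32 and 0.06 on its brightest probe), Reln was -0.06 for diet in wild-type mice (-0.28), and Gad1 was 0.57 for genotype on sucrose (0.06). The count of markers past 2-fold was the same under each alternative, and 1.5-fold on the brightest probes gave the same counts. As means over probes, Gad1 for diet in both genotypes and Gad2 for diet in heterozygotes and the interaction were also past 1.5-fold. Counts over all genes moved more. In the order diet in wild-type mice, diet in heterozygotes, genotype on starch, genotype on sucrose, both factors and interaction, they were 305, 365, 168, 354, 413 and 594. They became 105, 150, 48, 158, 147 and 228 with normexp background correction, 1577, 1461, 1447, 1530, 1711 and 2546 with no filter on dim probes, 65, 66, 20, 69, 90 and 89 with probes above the median signal, and 1225, 1150, 819, 946, 1512 and 1745 at 1.5-fold. Of genes past 2-fold for genotype on starch, 42.3% were higher, and 58.3% with normexp and 30.0% above the median signal. With no filter, the share higher went from 67.3% to 47.0% for both factors, from 79.7% to 53.8% for genotype on sucrose, from 32.8% to 43.6% for diet in wild-type mice and from 72.9% to 62.2% for diet in heterozygotes. Above the median signal it was 18.5% for diet in wild-type mice. The limma fit for diet called 28 probes with normexp and 1 with a trended prior variance, and none in the main setting. No marker was among them: the smallest limma adjusted p of a marker probe was 0.0666, for Gad1 with normexp.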
